A study of Mus musculus with 15 samples.

Results

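Abca1, Abcg1, Nr1h2, Nr1h3, Mylip, Ch25h, Apoe, Npc1 and Npc2 are 9 of the 10653 genes in the deposited gene table. They were chosen by name, with earlier results of these data known, as genes of the liver X receptors (LXRs), of 25-hydroxycholesterol synthesis and of the route by which a macrophage exports cholesterol. All 9 were present, and all 9 were among the 10616 genes tested, which reached 0.5 FPKM or more in at least 3 libraries. FPKM counts sequenced fragments per kilobase of transcript, scaled to the mapped fragments of the library, and is thus a level corrected for length and library size.

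The study exposed MPI cells to elongated mineral particles for 24 h and sequenced their mRNA. MPI cells are self-renewing, non-transformed macrophages that depend on the growth factor GM-CSF and resemble the macrophages of the lung's air spaces. The cells came from female C57BL6/J fetal liver and carried no labelled genetic change. Every group, the untreated one included, was grown with GM-CSF and fetal bovine serum, a source of lipoproteins. There were 5 groups of 3 libraries. The agents were riebeckite asbestos at 9 µg/cm2, riebeckite cleavage fragments at 40 µg/cm2, tremolite asbestos at 5 µg/cm2 and tremolite cleavage fragments at 60 µg/cm2, and the untreated cells received no particle. Riebeckite and tremolite are amphibole minerals. In the asbestos habit they grow as fibres, and cleavage fragments are broken pieces of the same mineral that are not asbestiform. The doses were matched by particle surface area, so the mass differs between the agents, and the effects of mass and of particle type cannot be told apart. Whether a group's 3 libraries were grown separately is not stated, so p-values measure only the spread between these libraries, which may be technical.

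LXRs are nuclear receptors that bind oxysterols, the oxidised forms of cholesterol. Paired with a retinoid X receptor, they switch on genes that rid a cell of sterol. In macrophages that take up lipid-rich debris, cholesterol freed in the lysosome leaves through NPC2 and NPC1, and the transporters ABCA1 and ABCG1 then pass it to apolipoproteins and to high-density lipoprotein. Ch25h encodes cholesterol 25-hydroxylase, whose product 25-hydroxycholesterol binds LXRs, restrains the sterol synthesis regulator SREBP2, and is made by macrophages that sense microbes or interferon.

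The promoters of Abca1 and Ch25h are shown because these 2 genes had the largest changes of the set, in opposite directions. Each is the 250 bases before the RefSeq start site on the gene's own strand, in build GRCm38.p6. The Abca1 stretch is chr4:53159896-53160145 on the minus strand, and its capitals mark the closest match to the LXR element, AGGTCA repeated after any 4 bases. The Ch25h stretch is chr19:34475149-34475398 on the minus strand, and its capitals mark a cAMP response element, TGACGTCA.
Abca1: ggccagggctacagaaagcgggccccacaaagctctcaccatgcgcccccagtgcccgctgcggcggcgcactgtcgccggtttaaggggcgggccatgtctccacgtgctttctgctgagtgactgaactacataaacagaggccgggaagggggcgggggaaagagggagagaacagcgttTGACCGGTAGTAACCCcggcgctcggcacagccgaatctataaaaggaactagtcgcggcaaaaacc
Ch25h: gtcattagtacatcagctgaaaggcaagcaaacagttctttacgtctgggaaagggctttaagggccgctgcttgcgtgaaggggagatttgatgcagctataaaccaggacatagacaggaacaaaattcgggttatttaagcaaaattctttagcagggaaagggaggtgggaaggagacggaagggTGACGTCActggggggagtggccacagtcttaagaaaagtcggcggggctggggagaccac

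Both strands were searched for each motif, and the motifs were chosen with the expression results known. The capitals of Abca1 lie at positions -67 to -52 from the start site, match on the strand opposite to the gene, and differ from the LXR element at 3 of its 12 specified positions. A match that close was found in 18.5% of the 32817 RefSeq promoters of this length, against 2.57% with at most 2 differences. Of the 9 genes, 7 had a promoter entry, with 10 windows in all, and Abca1 held the closest match among them. The Abca1 stretch also held CACGTG, an E-box, at -147 to -142 (6.02% of promoters), and TATAAA at -29 to -24 (12.4%). The cAMP response element of Ch25h lies at -61 to -54, and its TATAAA at -151 to -146. The cAMP response element was found in 1.55% of promoters and in no other window of these genes. Neither GAAA repeated after any 2 bases, the core of the interferon-stimulated response element (2.97% of promoters), nor the AP-1 site TGANTCA (6.75%) was found in the Ch25h window. Abcg1 and Npc1 had no entry.

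Summed FPKM per library ranged from 257329 to 273570. Pairs of libraries of a group had Spearman's rho of 0.988 to 0.992, and pairs from different groups 0.963 to 0.990. Depth in reads is not known from FPKM. All 12 macrophage markers of the list used, among them Cd68, Csf1r and Lyz2, were in the table, and their summed level was 5958 to 6493 FPKM in untreated libraries and 6202 to 7931 FPKM after treatment. They did not all move alike. By the test described below, 7 were called higher after riebeckite asbestos, 6 after riebeckite fragments, 6 after tremolite asbestos and 7 after tremolite fragments. After each particle 2 were called lower. Of 10 neutrophil markers 2 were in the table, S100a8 and Cxcr2, with sums of 28.2 to 33.8 FPKM untreated, 68.3 to 72.1 after riebeckite and 36.3 to 46.1 after tremolite. The defining neutrophil genes Mpo, Elane and Ly6g were not in the table. Of 7 dendritic cell markers 1 was present (Clec9a, 8.28 to 9.85 FPKM untreated and 11.1 to 15.9 FPKM after treatment), and none of the 6 mast cell, 7 hepatocyte, 9 stromal and epithelial or 7 lymphoid and erythroid markers was. These marker sums moved with treatment, as several of the genes below did, and their part in the results was not tested. In bulk RNA, a change in how many cells express a gene and a change in RNA per cell cannot be told apart.

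Against untreated cells, all 4 particles were followed by more Abca1 and less Ch25h mRNA. Abca1 rose 2.86-fold in mean FPKM after riebeckite asbestos and 2.32-fold after riebeckite fragments. After tremolite asbestos and fragments the ratios were 1.68 and 1.73. Ch25h fell to 0.246 and 0.186 of the untreated mean after riebeckite asbestos and fragments, and to 0.643 and 0.541 after tremolite asbestos and fragments. The transporter Abcg1 and the ubiquitin ligase gene Mylip also rose after all 4 particles, by at most 1.47-fold.

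Changes were tested with limma on log2(FPKM + 1) in 1 fit of all 15 libraries, and a gene was called at a Benjamini-Hochberg adjusted p under 0.05 over the 10616 genes. All log2 changes below are on that scale, which understates the change of genes at low level. After riebeckite asbestos 7 of the 9 genes were called higher and 1 lower, where 21.0% of all genes tested were called higher and 24.3% lower. After riebeckite fragments 6 were called higher and 1 lower (all genes 15.3% and 23.1%). After tremolite asbestos 4 were called higher and 1 lower (10.0% and 13.9%). After tremolite fragments 5 were called, 4 higher and 1 lower, where 27.5% of all genes were called in either direction. Ch25h was the gene called lower each time. The median log2 change of the 9 genes was 0.25, 0.25, 0.12 and 0.11 in that order of treatments, and the median over all genes tested was -0.02, -0.04, -0.03 and -0.02. The 4 comparisons share the same 3 untreated libraries.

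**Figure D1:**
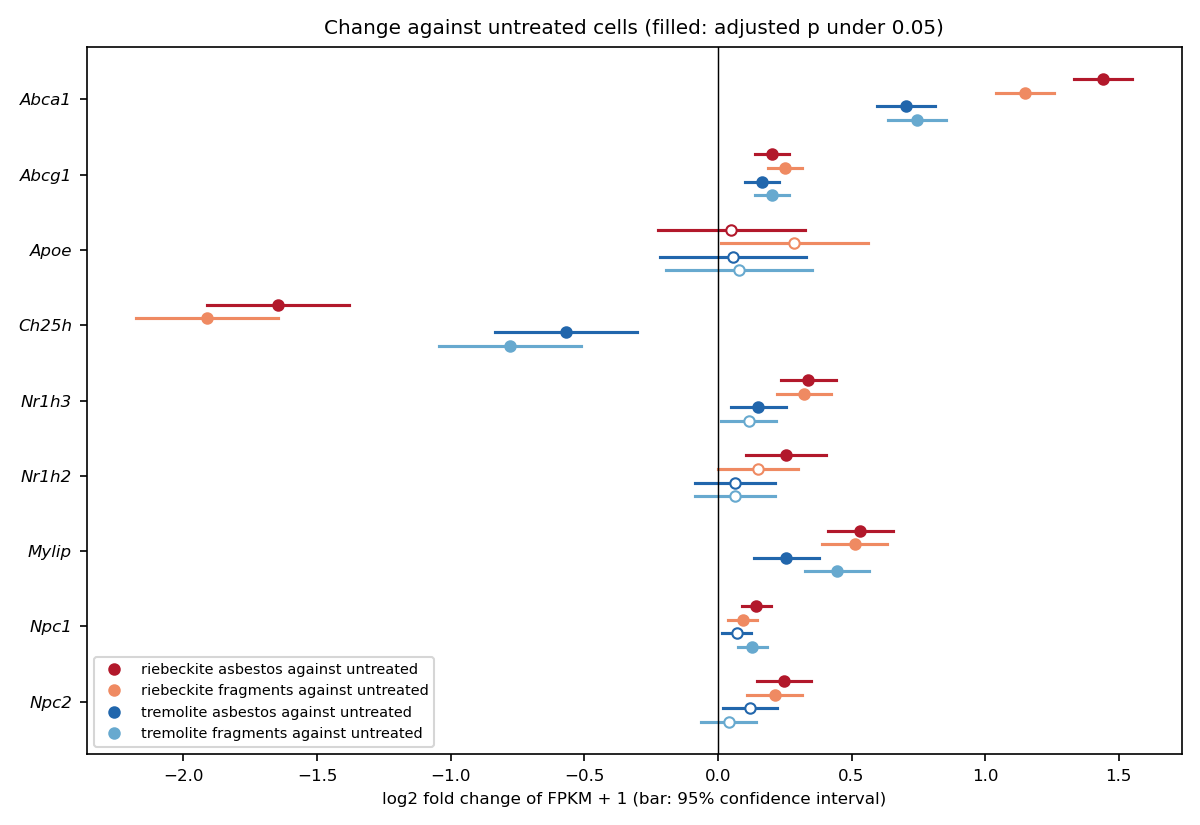
Log2 fold change of FPKM + 1 against untreated cells (x axis) for each of the 9 genes (rows) and 4 treatments (colours). Points are limma estimates from 3 libraries a group, bars are 95% confidence intervals, and filled points have an adjusted p under 0.05. Abca1 lies farthest to the right, Ch25h farthest to the left, and the other genes lie between 0.04 and 0.53.

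Abca1 (ENSMUSG00000015243.4, GRCm38 chr4:53030787-53159895, minus strand) encodes the transporter that loads cholesterol and phospholipid onto lipid-poor apolipoproteins. It was at 11.3, 12.1 and 12.3 FPKM in the untreated libraries. After riebeckite asbestos it was at 37.4, 32.5 and 32.3 FPKM, and after riebeckite fragments at 27.6, 27.7 and 27.5 FPKM. After tremolite asbestos it was at 19.3, 20.7 and 20.0 FPKM, and after tremolite fragments at 20.5, 20.7 and 20.6 FPKM. Every treated library was above every untreated one, and the libraries of the 2 riebeckite groups were all above those of the 2 tremolite groups. The group means were 11.9 ± 0.50 FPKM untreated (SD, n = 3), 34.1 ± 2.88 and 27.6 ± 0.105 after riebeckite asbestos and fragments, and 20.0 ± 0.708 and 20.6 ± 0.129 after tremolite asbestos and fragments.

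The log2 change of Abca1 against untreated cells was 1.44 after riebeckite asbestos (SE 0.0503, limma adjusted p = 1.48e-10) and 1.15 after riebeckite fragments (adjusted p = 2.01e-09). It was 0.70 after tremolite asbestos (adjusted p = 4.95e-07) and 0.75 after tremolite fragments (adjusted p = 1.95e-07). By the F test over the 5 groups, Abca1 had adjusted p = 1.78e-09 and was the 55th of the 10616 genes. From highest to lowest, the groups ran riebeckite asbestos, riebeckite fragments, the tremolite pair and untreated, and only the 2 tremolite neighbours were not told apart (adjusted p = 0.835).

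**Figure D2:**
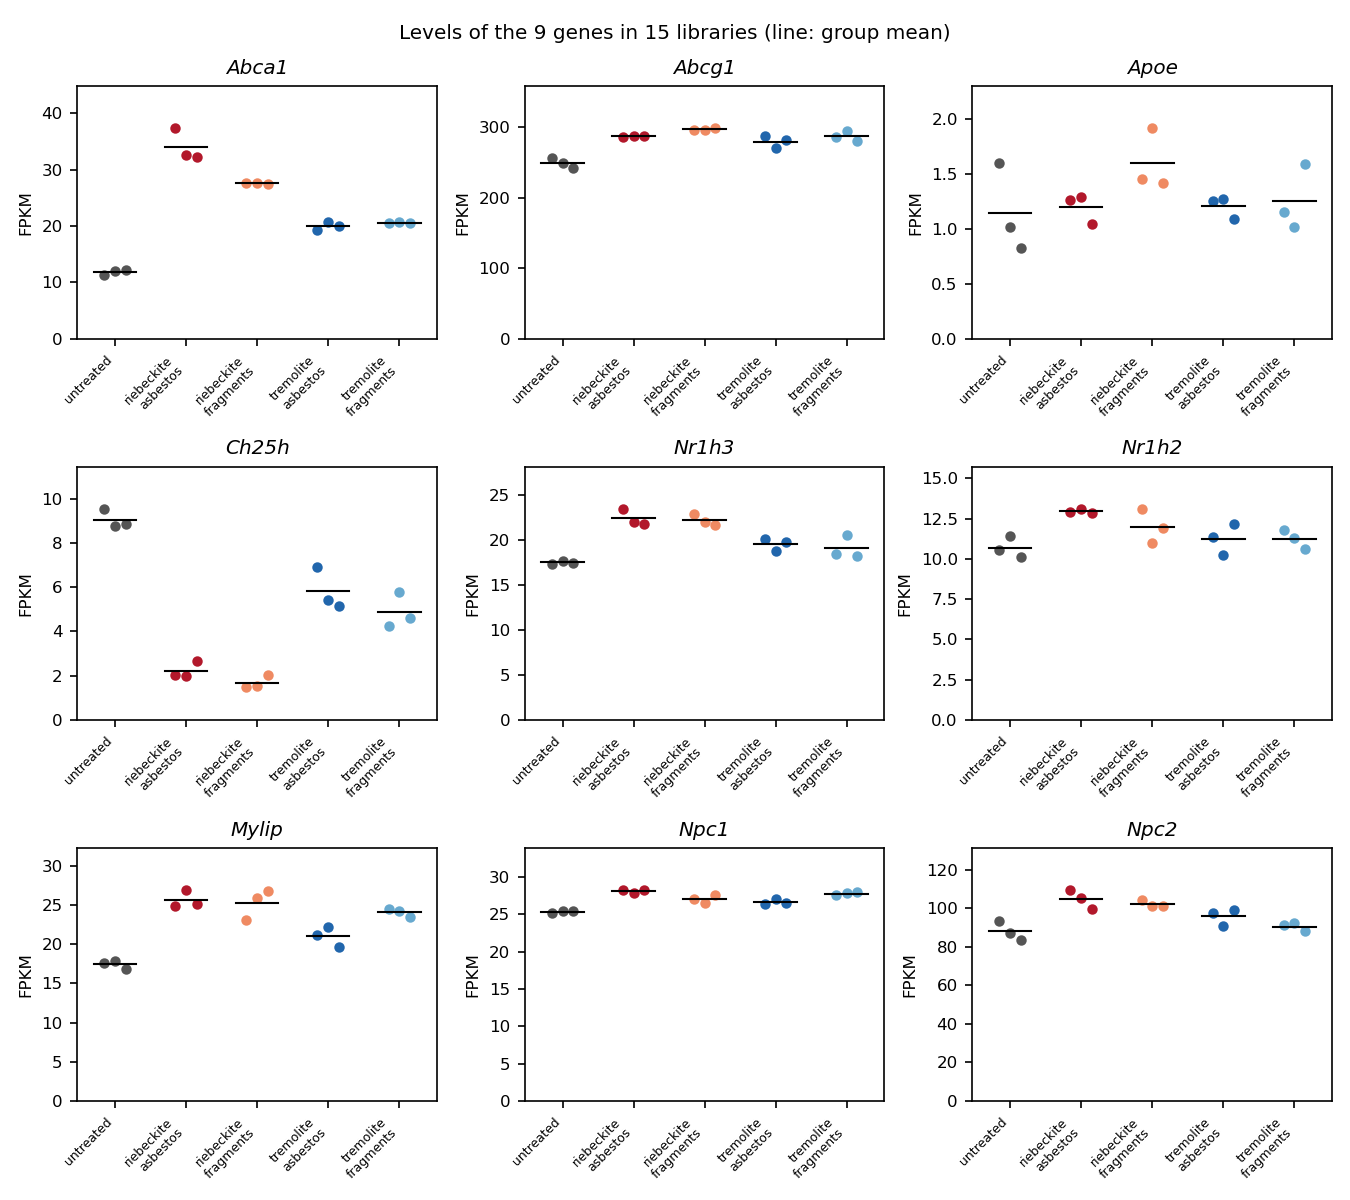
FPKM (y axis, from 0) of the 9 genes in the 15 libraries, by group (x axis). Points are libraries, with 3 a group, and lines are group means. The untreated libraries are the lowest for Abca1, at 11.3 to 12.3 FPKM, and the highest for Ch25h, at 8.76 to 9.53 FPKM.

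Abcg1 (chr17:31057698-31115777, plus strand) encodes the transporter that moves sterol toward high-density lipoprotein and was the most abundant of the 9 per length. The untreated libraries were at 256, 249 and 242 FPKM. The 4 treated groups had means of 286 ± 0.751 after riebeckite asbestos, 297 ± 1.23 after riebeckite fragments, 279 ± 8.58 after tremolite asbestos and 286 ± 7.50 FPKM after tremolite fragments (SD, n = 3). All 12 treated libraries, from 270 to 298 FPKM, were above the untreated ones. The log2 changes were 0.20, 0.25, 0.16 and 0.20 after riebeckite asbestos, riebeckite fragments, tremolite asbestos and tremolite fragments (limma adjusted p = 9.54e-05, 1.74e-05, 0.00121 and 0.000192). In FPKM, Abcg1 was 21.0 ± 1.46 times Abca1 in untreated libraries, 8.45 ± 0.702 times after riebeckite asbestos and 10.8 ± 0.0858 times after riebeckite fragments. After tremolite asbestos and fragments the ratio was 14.0 ± 0.915 and 13.9 ± 0.330.

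Apoe (chr7:19696109-19699188, minus strand) encodes apolipoprotein E, an acceptor of exported cholesterol that many macrophages secrete and a known LXR target. It was the lowest of the 9 genes in FPKM. The untreated libraries were at 1.60, 1.02 and 0.825 FPKM, and the treated ones ran from 1.02 to 1.92 FPKM. Each treated group overlapped the untreated one, and no comparison was called. The log2 change was 0.29 after riebeckite fragments (limma adjusted p = 0.0931, 95% confidence interval 0.0123 to 0.56) and 0.05 to 0.08 after the other 3 particles. Without untreated library 1, the highest of that group, the change after riebeckite fragments was 0.43 and passed the threshold (adjusted p = 0.0103).

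Ch25h (chr19:34473786-34475135, minus strand) is a gene of a single transcript and was the one of the 9 that fell. It was at 9.53, 8.76 and 8.86 FPKM in untreated libraries. After riebeckite asbestos it was at 2.03, 1.99 and 2.66 FPKM, and after riebeckite fragments at 1.47, 1.53 and 2.04 FPKM. After tremolite asbestos it was at 6.91, 5.40 and 5.15 FPKM, and after tremolite fragments at 4.25, 5.80 and 4.62 FPKM. No treated library reached the untreated range, and no riebeckite library reached the tremolite range, while the 2 groups of each mineral overlapped. The means were 9.05 ± 0.421 FPKM untreated, 2.23 ± 0.378 and 1.68 ± 0.309 after riebeckite asbestos and fragments, and 5.82 ± 0.954 and 4.89 ± 0.809 after tremolite asbestos and fragments (SD, n = 3).

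The log2 change of Ch25h was -1.64 after riebeckite asbestos (SE 0.122, limma adjusted p = 1.89e-07) and -1.91 after riebeckite fragments (adjusted p = 6.62e-08). It was -0.57 after tremolite asbestos (adjusted p = 0.00434) and -0.78 after tremolite fragments (adjusted p = 0.000364). With a pseudocount of 0.1 FPKM in place of 1, the largest of these was -2.37. In the order of group means, from untreated through tremolite asbestos, tremolite fragments and riebeckite asbestos to riebeckite fragments, neither the tremolite neighbours (adjusted p = 0.600) nor the riebeckite neighbours (adjusted p = 0.194) were told apart. Tremolite fragments and riebeckite asbestos were not compared by a test, and their libraries did not overlap.

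Ch25h is known as an interferon-inducible gene, and the summed level of 20 interferon response genes is given beside it by library. In untreated libraries the sum was 302, 287 and 298 FPKM. After riebeckite asbestos it was 390, 524 and 237 FPKM, and for the riebeckite fragments 248, 429 and 220 FPKM. After tremolite asbestos it was 499, 514 and 645 FPKM, and for the tremolite fragments 328, 348 and 395 FPKM. In both riebeckite groups the library with the lowest sum had the highest Ch25h. These were 237 with 2.66 FPKM after asbestos and 220 with 2.04 FPKM after fragments. The same held after tremolite asbestos (499 with 6.91 FPKM). In the untreated group and after tremolite fragments the library with the lowest sum had the lowest Ch25h, 287 with 8.76 and 328 with 4.25 FPKM. The tremolite asbestos libraries had the 1st, 3rd and 4th highest sums and, like all treated libraries, Ch25h levels below those of every untreated library. The part of the interferon response in the Ch25h levels was not tested. Of the 20 genes, 5 were called higher after tremolite asbestos (10.0% of all genes), among them Irf9 (0.67, adjusted p = 0.00519) and Bst2 (0.89, adjusted p = 0.00345), a tetherin. There 0 were called lower (13.9% of all genes). At an unadjusted p under 0.05 by limma, 13 were higher and 1 lower after tremolite asbestos. After riebeckite fragments 0 were called higher by limma (0 also at an unadjusted p under 0.05) and 3 lower. Of all genes, 15.3% were called higher and 23.1% lower there. After tremolite fragments 1 was called higher and 1 lower, where 27.5% of all genes were called in either direction. After riebeckite asbestos 1 was called higher and 3 lower (all genes 21.0% and 24.3%). Among the lower were Mx1 (-0.91, limma adjusted p = 0.000751) and the chemokine gene Cxcl10 (-0.36, adjusted p = 0.0423). Apart from the count called higher after tremolite asbestos, the counts of this list lie below the shares over all genes. The median change of the 20 genes was 0.01, -0.29, 0.81 and 0.18 after riebeckite asbestos, riebeckite fragments, tremolite asbestos and tremolite fragments.

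**Figure D3:**
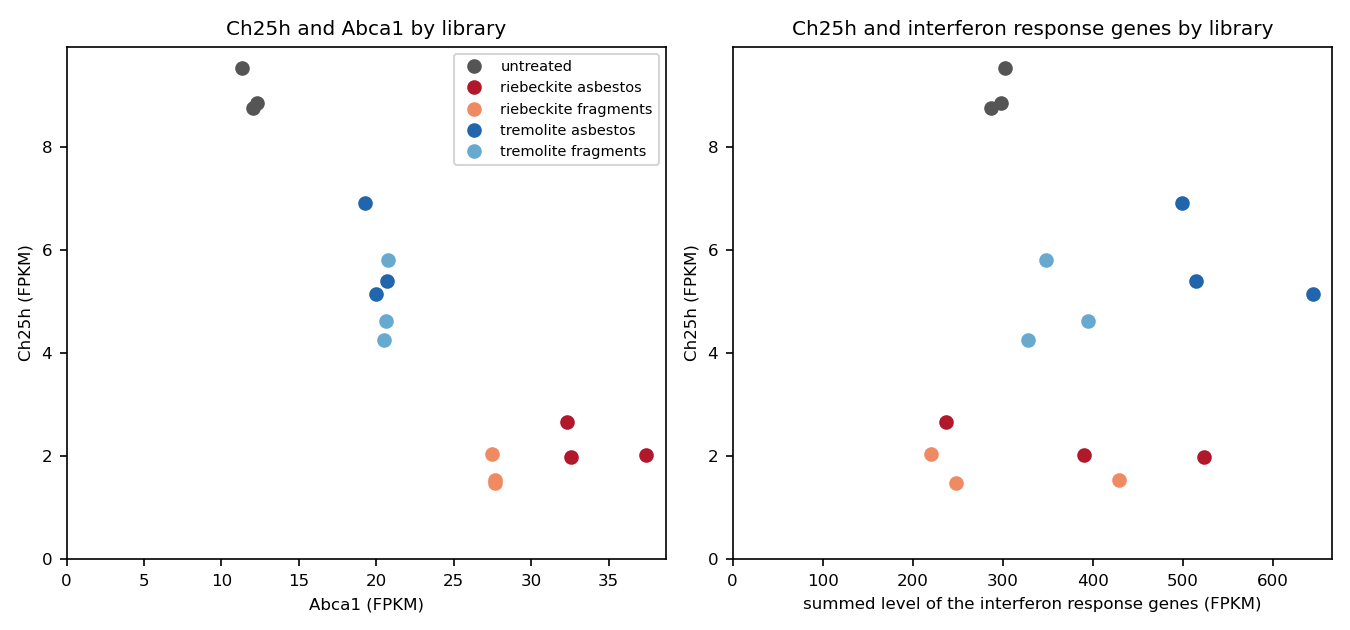
Ch25h in FPKM (y axes) in the 15 libraries against Abca1 in FPKM (left) and against the summed FPKM of 20 interferon response genes (right). Points are libraries, coloured by group. On the left the untreated libraries lie at top left, the tremolite groups mix in the middle and the riebeckite groups lie at lower right, and on the right the riebeckite libraries spread from 220 to 524 FPKM with Ch25h at 2.66 FPKM or less.

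Nr1h3 (chr2:91184061-91202834, minus strand) encodes LXR-alpha, the receptor that is enriched in macrophages and itself an LXR target in some species. It was at 17.4, 17.7 and 17.5 FPKM in untreated libraries, 23.4, 22.0 and 21.8 after riebeckite asbestos, and 22.9, 22.0 and 21.6 after riebeckite fragments. After tremolite asbestos it was at 20.1, 18.7 and 19.8 FPKM, and after tremolite fragments at 18.5, 20.6 and 18.1 FPKM. All treated libraries were above the untreated ones, and the riebeckite libraries were above the tremolite ones. Nr1h3 rose by 0.34 and 0.32 (log2) after riebeckite asbestos and fragments (limma adjusted p = 6.25e-05 and 0.000118) and by 0.15 after tremolite asbestos (adjusted p = 0.0327). After tremolite fragments its change was 0.11 and was not called (adjusted p = 0.0904). The tremolite asbestos call was lost when untreated library 1, 2 or 3 or tremolite asbestos library 1 or 3 was left out (adjusted p = 0.0669 to 0.108).

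Nr1h2 (chr7:44549616-44553951, minus strand) encodes LXR-beta, the receptor found in most tissues. The untreated libraries were at 10.6, 11.4 and 10.1 FPKM and those after riebeckite asbestos at 12.9, 13.1 and 12.9 FPKM, with no overlap. The other 3 groups had means of 12.0 ± 1.05, 11.2 ± 0.970 and 11.2 ± 0.594 FPKM (SD, n = 3) and overlapped the untreated range. Nr1h2 rose after riebeckite asbestos (0.25, SE 0.0689, limma adjusted p = 0.00885), a call that was lost with gene values summed from the transcript table (0.20, adjusted p = 0.0670). The change was 0.15 after riebeckite fragments (adjusted p = 0.105) and 0.06 after each tremolite particle, and none of these was called. Without riebeckite fragments library 2, the lowest of its group, the riebeckite fragments change passed the threshold (0.21, adjusted p = 0.0402). Over the 5 groups the limma F test just missed the threshold (adjusted p = 0.05003).

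Mylip (chr13:45389742-45412022, plus strand) encodes the ubiquitin ligase known as IDOL, an LXR target that limits the uptake of lipoprotein cholesterol. It was at 17.6, 17.8 and 16.8 FPKM in untreated libraries, 24.9, 26.9 and 25.1 after riebeckite asbestos, and 23.2, 25.9 and 26.8 after riebeckite fragments. After tremolite asbestos it was at 21.2, 22.2 and 19.6 FPKM, and after tremolite fragments at 24.5, 24.2 and 23.5 FPKM. All treated libraries were above the untreated ones, with the tremolite asbestos libraries nearest to them. The log2 changes were 0.53, 0.51, 0.26 and 0.45 after riebeckite asbestos, riebeckite fragments, tremolite asbestos and tremolite fragments (limma adjusted p = 5.15e-06, 9.97e-06, 0.00476 and 5.32e-05).

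Npc1 (chr18:12189693-12236400, minus strand) encodes the membrane protein through which cholesterol leaves the lysosome. It was at 25.1, 25.4 and 25.4 FPKM untreated, and the treated libraries were at 26.3 to 28.2 FPKM, all above the untreated ones. Its means were 28.1 ± 0.230 and 27.1 ± 0.568 FPKM after riebeckite asbestos and fragments and 26.6 ± 0.370 and 27.8 ± 0.207 after tremolite asbestos and fragments (SD, n = 3). The log2 changes were 0.14 after riebeckite asbestos (limma adjusted p = 0.000472), 0.09 after riebeckite fragments (0.0119) and 0.13 after tremolite fragments (0.00195). After tremolite asbestos the change was 0.07 and was not called (0.0657). Rescaling the libraries by TMM factors or by quantiles brought it past the threshold (adjusted p = 0.00535 and 0.0444), and the riebeckite fragments call was lost when only those 2 groups were fitted (0.0772).

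Npc2 (chr12:84754562-84773152, minus strand) encodes the soluble lysosomal protein that hands cholesterol to NPC1. It was at 93.4, 87.2 and 83.8 FPKM untreated, 109, 105 and 99.8 after riebeckite asbestos, and 104, 101 and 101 after riebeckite fragments. After tremolite asbestos it was at 97.8, 90.6 and 99.2 FPKM, and after tremolite fragments at 91.1, 92.4 and 88.1 FPKM. The riebeckite libraries were all above the untreated ones, and both tremolite groups overlapped them. Npc2 rose by 0.25 and 0.21 (log2) after riebeckite asbestos and fragments (limma adjusted p = 0.000780 and 0.00289). The changes after tremolite asbestos (0.12, adjusted p = 0.0820) and fragments (0.04, adjusted p = 0.587) were not called. The tremolite asbestos change passed the threshold without untreated library 1 (adjusted p = 0.0282), without tremolite asbestos library 2 (0.0319) and under TMM scaling (0.0451).

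Asbestos and fragments of the same mineral were compared to ask whether the habit of the particle matters at equal surface area. Abca1 was the gene that differed. It was higher after riebeckite asbestos than after riebeckite fragments by 0.29 on the log2 scale (95% confidence interval 0.18 to 0.40, limma adjusted p = 0.00356), and the 3 asbestos libraries were all above the 3 fragment libraries. Of the 9 genes it alone was called in that comparison, a count near the share of 10.6% called over all genes. When the fit held these 2 groups alone, the adjusted p was 0.0581. Ch25h was 0.27 higher after asbestos and was not called (95% confidence interval 0.00098 to 0.53, adjusted p = 0.194).

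Between tremolite asbestos and tremolite fragments 0 of the 9 genes were called by limma, against 0.942% of all genes, and 2 had an unadjusted p under 0.05. Those were Mylip, 0.19 lower after asbestos (95% confidence interval -0.31 to -0.07, adjusted p = 0.171), and Npc1, 0.06 lower (-0.115 to -0.0045, adjusted p = 0.399). The interval for Abca1 was -0.15 to 0.07 and that for Ch25h -0.05 to 0.48. The habit difference of Abca1 in riebeckite exceeded that in tremolite by 0.34 (SE 0.0711, 95% confidence interval 0.18 to 0.49, limma adjusted p = 0.0221). It was the 1 gene of the 9 called for this difference, and 3.93% of all genes were called. Mylip and Npc1 had an unadjusted p under 0.05 and were not called. Their differences were 0.21 (95% confidence interval 0.04 to 0.38, limma adjusted p = 0.170) and 0.11 (0.03 to 0.19, adjusted p = 0.115). The adjusted p of Abca1 was 0.0513 without riebeckite fragments library 2, 0.0555 and 0.0533 without tremolite asbestos library 1 and 3, and 0.0559 without tremolite fragments library 2.

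The 2 minerals were compared within each habit. After asbestos, riebeckite gave higher Abca1 (0.74, limma adjusted p = 8.08e-07), Mylip (0.28, 0.00290) and Nr1h3 (0.19, 0.0103) than tremolite, and lower Ch25h (-1.08, adjusted p = 3.92e-05). With Npc1 (0.07, adjusted p = 0.0467), 4 of the 9 genes were higher and 1 was lower, against 15.5% and 11.0% of all genes. The Npc1 call was lost in 13 of 15 fits that each left out 1 library (adjusted p = 0.0501 to 0.118). Only those without riebeckite fragments library 2 or 3 kept it. Over all 24 alternatives the Npc1 call was lost in 19, among them TMM and quantile scaling (limma adjusted p = 0.116 and 0.198). After fragments, riebeckite gave higher Abca1 (0.40, adjusted p = 0.000237), Nr1h3 (0.21, 0.0131) and Npc2 (0.17, 0.0327), and lower Ch25h (-1.13, adjusted p = 9.59e-05), so 3 were higher and 1 lower, against 5.31% and 6.01% of all genes. The Nr1h3 call was lost without riebeckite fragments library 1 (adjusted p = 0.0573), tremolite fragments library 1 (0.0544) or tremolite fragments library 3 (0.0600). The Npc2 call was lost without any 1 of the 6 libraries compared (0.0599 to 0.116). Abcg1 was called in neither comparison, with 95% confidence intervals of -0.03 to 0.10 after asbestos and -0.01 to 0.11 after fragments.

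**Figure D4:**
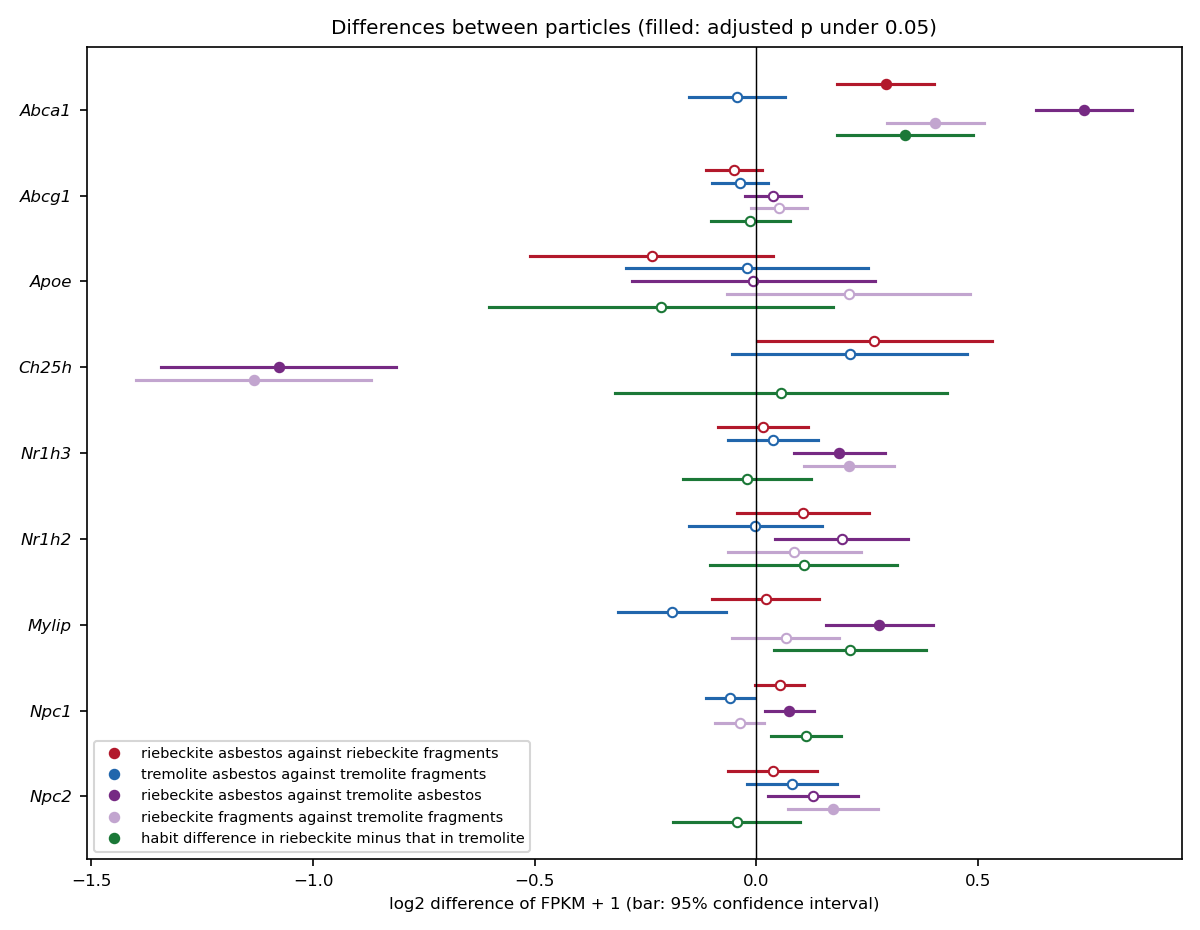
Log2 difference of FPKM + 1 between particles (x axis) for the 9 genes (rows) in 5 comparisons (colours), with 95% confidence intervals as bars and filled points for an adjusted p under 0.05. Abca1 lies at 0.74 and 0.40 and Ch25h at -1.08 and -1.13 between minerals, and between habits only Abca1 in riebeckite is filled.

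By the F test over the 5 groups, 7 of the 9 genes were called, where 47.7% of all genes were. Nr1h2 and Apoe were the other 2. The transcript table listed 21 transcripts of the 9 genes. Abca1, Abcg1, Ch25h, Npc1 and Npc2 each had 1 listed transcript, and these 5 and Mylip-201 were called by the F test on transcripts (11.2% of all transcripts). Mylip-201 made up 94.8% to 98.5% of the listed Mylip level in the group means. None of the 8 transcripts of Nr1h2, the 4 of Nr1h3 or the 2 of Apoe was called. Nr1h3-202 was the largest of its gene, at 58.4 ± 3.81% of the listed level untreated and 45.9 ± 3.88% after riebeckite fragments (SD, n = 3), and its level was not called (adjusted p = 0.143). For 8 of the 9 genes the listed transcripts summed to more FPKM than the gene value, with mean ratios of 1.01 for Abca1 to 2.04 for Npc1, and of 1.58 for Npc2, 1.66 for Nr1h2 and 1.70 for Apoe. Npc1-201 was at 51.6 ± 0.321 FPKM in untreated libraries (SD, n = 3) where the Npc1 gene value was 25.3 ± 0.186, so the gene levels of Npc1, Npc2, Nr1h2 and Apoe understate the summed levels of their listed transcripts.

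Genes that work with the 9 were counted from lists, and called genes are given against untreated cells in the order riebeckite asbestos, riebeckite fragments, tremolite asbestos and tremolite fragments. The lists were chosen with earlier results of these data known. Over all genes tested, 21.0%, 15.3% and 10.0% were called higher and 24.3%, 23.1% and 13.9% lower after riebeckite asbestos, riebeckite fragments and tremolite asbestos, and 27.5% were called in either direction after tremolite fragments. Of 15 other LXR target genes tested, 8, 8, 2 and 4 rose and 3, 1, 3 and 3 fell, with median log2 changes of 0.20, 0.12, 0.06 and 0.09. The tremolite asbestos counts are near the shares over all genes. Fads1, a fatty acid desaturase, rose after all 4 particles (0.55, 0.53, 0.16 and 0.29). Lpcat3, which builds polyunsaturated phospholipid, rose by 0.46, 0.41 and, after tremolite fragments, 0.17, and stood at 0.09 after tremolite asbestos (limma adjusted p = 0.112). Scd1, stearoyl-CoA desaturase, rose by 0.36 and 0.42 after the riebeckite particles, from 85.4 ± 0.749 FPKM untreated to 109.8 ± 2.17 and 115 ± 4.16. After tremolite asbestos and fragments it was at -0.08 and -0.02 (adjusted p = 0.0780 and 0.745). Srebf1, the lipid synthesis regulator, rose by 0.46 and 0.39 after riebeckite and was at 0.06 and 0.08 after tremolite (adjusted p = 0.349 and 0.194). Compared directly, riebeckite exceeded tremolite in Scd1 by 0.44 for asbestos and 0.44 for fragments (limma adjusted p = 1.27e-06 and 3.63e-06), and in Srebf1 by 0.40 and 0.32 (2.07e-05 and 0.000399). Of the 15 LXR target genes, 7 were called higher and 3 lower after riebeckite than tremolite asbestos, against 15.5% and 11.0% of all genes. For fragments of the 2 minerals, 7 were higher after riebeckite and 0 lower, against 5.31% and 6.01% of all genes. Between riebeckite asbestos and fragments, 0 of the 15 were higher after asbestos and 4 lower, against 10.6% of all genes in either direction.

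Of 14 LXR receptor and partner genes, Nr1h2 and Nr1h3 included, 3, 1, 1 and 1 rose and 2, 3, 1 and 1 fell (medians -0.03, -0.09, -0.07 and 0.01). These counts are near or below the shares over all genes. The coactivator genes Ncoa3 (-0.27, -0.33, -0.17 and -0.15) and Ncoa1 (-0.28 and -0.24 after riebeckite, not called after tremolite) fell. Of 9 other genes on a list of efflux, transporter and related lipid genes, 5, 4, 1 and 1 rose and 3, 2, 4 and 3 fell. The medians were 0.14, -0.00083, -0.03 and -0.0035. The counts that fell after the riebeckite particles, and the count that rose after tremolite asbestos, are near the shares over all genes. Abcg2, a broad exporter, rose by 0.61 and 0.69 after riebeckite asbestos and fragments. Scarb1, a receptor for high-density lipoprotein, fell after all 4 particles (-0.37, -0.36, -0.32 and -0.39), and the lipid droplet coat gene Plin2 rose after all 4 (0.14, 0.24, 0.18 and 0.21). Abca5, at 0.625 ± 0.0306 FPKM untreated, rose by 0.24 and 0.28 after the riebeckite particles.

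Of 6 genes of a list of oxysterol metabolism, which also holds sterol synthesis genes, 2, 2, 1 and 1 rose and 1, 0, 2 and 2 fell. The medians were 0.20, 0.18, -0.11 and 0.06. Cyp27a1, which makes 27-hydroxycholesterol, fell after riebeckite asbestos (-0.49), tremolite asbestos (-0.47) and tremolite fragments (-0.49), from 2.11 ± 0.265 FPKM untreated, and was at -0.20 after riebeckite fragments (limma adjusted p = 0.113). Soat1, which esterifies cholesterol for storage, rose after all 4 (0.14, 0.29, 0.19 and 0.18). Cyp51, of sterol synthesis, rose after the riebeckite particles (0.26 and 0.19), and Ebp, of the same route, fell after the tremolite particles (-0.13 and -0.11). Of 20 genes of lysosomal lipid release and sterol transport, 6, 6, 5 and 4 rose and 6, 4, 3 and 4 fell (medians 0.06, -0.00023, 0.03 and 0.03). The counts that fell after the riebeckite particles and after tremolite asbestos are near the shares of all genes called lower. Scarb2, which encodes a lysosomal membrane protein, rose by 0.48, 0.42, 0.32 and 0.36. Nceh1, a cholesteryl ester hydrolase gene, rose by 0.26, 0.44, 0.24 and 0.36. Smpd1, acid sphingomyelinase, rose by 0.39 and 0.32 after the riebeckite particles and was at 0.08 after each tremolite particle (adjusted p = 0.261 and 0.231).

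Of 17 genes of sterol sensing and of SREBP2 control, 7 and 6 rose and 2 and 2 fell after riebeckite asbestos and fragments. After tremolite asbestos and fragments 3 and 4 fell, while 0 and 1 rose (0 and 2 at an unadjusted p under 0.05 by limma). The count that fell after tremolite asbestos, and that called in either direction after tremolite fragments, are near the shares over all genes. The medians over the 4 treatments were 0.03, 0.11, -0.06 and -0.07. The synthesis genes Mvd (0.44 and 0.34) and Fdps (0.27 and 0.16) rose after riebeckite asbestos and fragments, and Idi1 fell after all 4 (-0.15, -0.16, -0.34 and -0.42). Directly compared within a habit, 8 of the 17 were higher after riebeckite than tremolite asbestos and 7 of 17 after riebeckite than tremolite fragments, where 15.5% and 5.31% of all genes were called higher. Of 11 fatty acid uptake and PPAR-gamma genes, 6, 6, 7 and 7 rose and 4, 3, 3 and 3 fell (medians 0.14, 0.24, 0.18 and 0.21). Olr1, a receptor for oxidised LDL, rose by 1.39, 1.35, 0.88 and 1.08, and Cd36, a fatty acid and oxidised LDL receptor, by 0.90, 0.97, 0.62 and 0.72. Angptl4, an inhibitor of lipoprotein lipase, rose by 0.47, 0.32, 0.35 and 0.52. Fabp4, which carries fatty acids inside the cell, changed by -1.49, -1.23, -0.65 and -0.97.

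Of 7 apolipoprotein and lipoprotein enzyme genes, Apoe included, 3, 3, 1 and 1 rose and 1, 0, 2 and 2 fell (medians 0.09, 0.26, 0.06 and 0.11). Lrp1, a receptor that binds apolipoprotein E, rose after all 4 (0.40, 0.26, 0.15 and 0.17). Apoc2, the lipase cofactor and an LXR target, rose by 1.01 after riebeckite asbestos (limma adjusted p = 0.0110) and by 0.77 after riebeckite fragments (adjusted p = 0.0480), from 0.296 ± 0.289 FPKM untreated to 1.60 ± 0.449 and 1.18 ± 0.180. The lipase gene Lpl fell after riebeckite asbestos (-0.12), tremolite asbestos (-0.17) and tremolite fragments (-0.18). Some genes stand on more than 1 list, so the lists are not independent of each other.

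**Figure D5:**
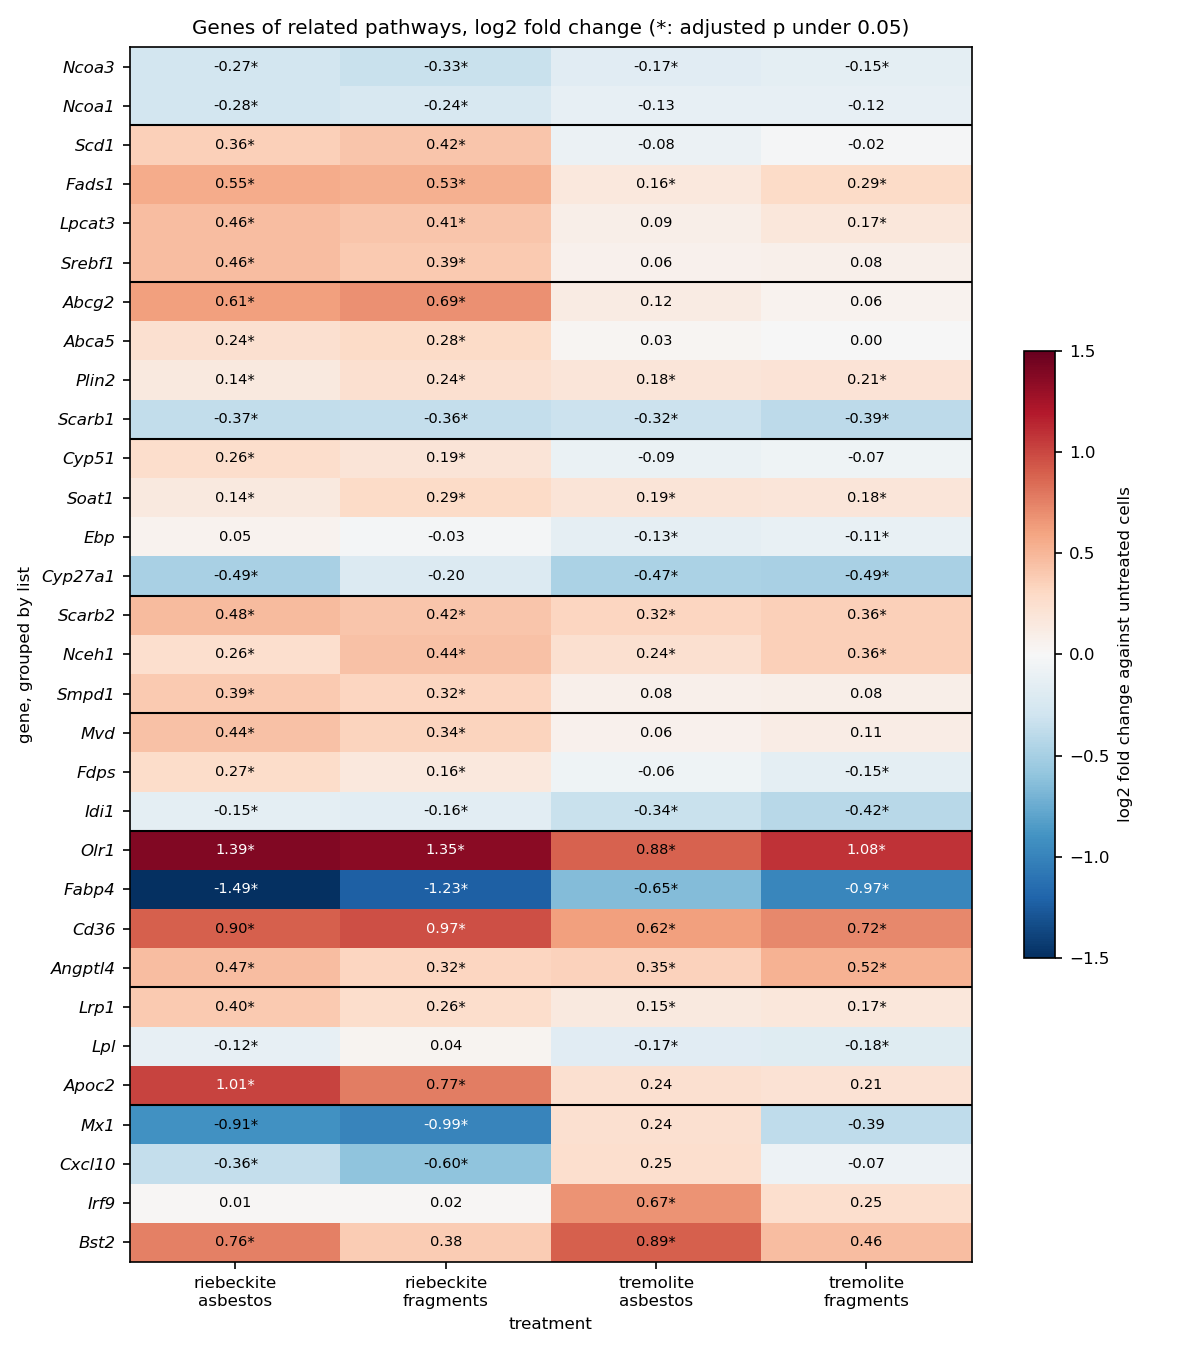
Log2 fold change against untreated cells (colour and number) after 4 treatments (columns) for up to 4 genes of each list (rows), taken from those with the smallest F test p over the 5 groups; lines part the lists. Stars mark an adjusted p under 0.05. Olr1 at 1.39 and Fabp4 at -1.49 are the extremes, and Scd1, Srebf1 and Abcg2 are starred in the riebeckite columns.

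The patterns of Abca1 and Ch25h were set beside those of all other tested genes by Pearson correlation of log2(FPKM + 1) over the 15 libraries. The libraries form 5 groups and share normalization, so these values describe likeness of level over groups, and many genes differ between the groups. With genes of predicted or clone symbols left out, the 5 genes most like Abca1 were Slc6a12 (r = 0.995), Mreg (0.991), Npy (0.989), Prune1 (0.987) and Hp (0.987). Slc6a12, which encodes a transporter of betaine and GABA, went from 5.49 ± 0.302 FPKM untreated to 43.7 ± 5.84 after riebeckite asbestos, 26.0 ± 1.31 after riebeckite fragments and 14.3 ± 0.984 and 14.6 ± 0.944 after tremolite asbestos and fragments, the same order of groups as Abca1. Hp, the gene of the haemoglobin-binding protein haptoglobin, went from 4.01 ± 0.448 FPKM to 35.4 ± 7.19 and 21.9 ± 0.411 after riebeckite asbestos and fragments. After tremolite asbestos and fragments Hp was at 13.0 ± 0.496 and 11.2 ± 1.49 FPKM, the reverse of the order of these 2 groups in Abca1. The 5 genes most like Ch25h, chosen likewise, were Hcar2 (r = 0.984), Als2cl (0.983), Cdk18 (0.978), Emilin2 (0.969) and Plxnb2 (0.968). Hcar2, the receptor gene for niacin and beta-hydroxybutyrate, went from 93.9 ± 1.98 FPKM untreated to 62.4 ± 2.03 and 56.2 ± 3.14 after riebeckite asbestos and fragments, and to 80.3 ± 0.960 and 74.0 ± 3.68 after tremolite asbestos and fragments.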

How the data were processed

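The 15 libraries were made from MPI cell RNA enriched with oligo(dT) beads, with dUTP in the second strand, per the labels' protocols. The tools cutadapt, HISAT2 and StringTie and the build GRCm38 are named per the submitters' processing notes. No version, setting or annotation release is given in the sources used here. FPKM were deposited by the authors for 10653 genes and 22795 transcripts and used as given. No gene in the table has its highest group mean under 0.500 FPKM, so genes below that could not be examined. With no counts, the depth behind each value is unknown, and a gene's FPKM depends on the other transcripts of its library.

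The 10616 genes at 0.5 FPKM or above in 3 or more libraries were fitted by limma 3.58.1 (R 4.3.3) on log2(FPKM + 1), by group over all 15 libraries, with a mean-variance trend. The 9 comparisons and an F test were each adjusted by Benjamini-Hochberg over all genes, with a threshold of 0.05, and transcripts (22038) likewise. The script was tested on simulated data. All alternatives also used limma (one rescaled the libraries by trimmed means of M values, TMM), and their effect is given in the closing section. Positions are those of the deposited table. For 9 symbols on more than 1 line the line with the higher mean was used. Promoters are from RefSeq (GRCm38.p6), and transcript models from GENCODE M21.

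Named were all 9 genes, up to 4 genes of each list with the smallest F test p, and the 5 genes most correlated with Abca1 and with Ch25h. Predicted and clone symbols were left out of the correlated genes. Some genes that the rule names are not reported here. The members, lists and motifs were chosen with earlier results of these data known. No library was left out.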

Additional observations from a re-analysis of the deposited data

Results flagged for a closer look

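The difference between asbestos and fragments in Abca1 was not the same for the 2 minerals: it was 0.29 on the log2 scale in riebeckite and -0.04 in tremolite, and the gap of 0.34 passed limma's test of the difference itself (SE 0.0711, adjusted p = 0.0221). The riebeckite asbestos libraries were at 32.3 to 37.4 FPKM and those after riebeckite fragments at 27.5 to 27.7 FPKM, while the tremolite groups overlapped at 19.3 to 20.7 FPKM and 20.5 to 20.7 FPKM. Over the fits that each left out 1 library the gap ran from 0.27 to 0.37, with adjusted p = 0.0191 to 0.0559. No other gene of the 9 was called for this difference, although Mylip and Npc1 had an unadjusted limma p under 0.05.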

How the results depend on the processing

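Each of the 81 fold changes and differences of the 9 genes was recomputed under up to 24 alternatives, 1926 values in all. None that was called changed direction; 34 changed sign while called in neither fit (at most 0.08 on the log2 scale in size), 44 lost a call and 15 gained one. Abca1 and Ch25h against untreated cells and between minerals kept their calls under every alternative run for them. With only the groups compared in the fit, the count of genes called between asbestos and fragments went from 1 to 0, in riebeckite and over both minerals, and Npc1 after riebeckite fragments was lost (adjusted p = 0.0772). With gene values summed from the transcript table, the count between riebeckite and tremolite fragments went from 4 to 2, Nr1h2 after riebeckite asbestos was lost (0.0670), and Apoe after riebeckite fragments was called (0.53, 0.0250). Leaving out 1 library gave 0 to 1 gene called for the difference in habit between minerals and 2 to 4 between the fragments. The replicate numbers were not taken to pair the libraries in the main fit. Deviations from group means correlated above 0.1 in 4 of 30 same-numbered pairs (-0.06 to 0.17, median 0.02). That share is larger than the 1 of 60 among other pairs (median -0.02), and 8 of 15 libraries were nearest their own number. Whether same-numbered libraries belong together was not tested. With the replicate number as a block, 79 of 81 values kept their side of the threshold; between the asbestos minerals Npc2 gained a call (adjusted p = 0.0364) and Npc1 lost it (0.0518). No scaling moved the median over all genes by 0.1 or more. Apoe, and Ch25h after riebeckite, are at low levels, where a fixed pseudocount compresses fold changes most. Unknown depth leaves no counting error for any value.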
